A study of Mus musculus with 5 samples.

Results

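The genes described here are Mpo, Ngp and Mmp9, whose products are known as cargo of neutrophil granules, followed in cultured macrophages through 21 h of lipopolysaccharide. They were chosen by their changes at 21 h in the same arrays, and every probe annotated with exactly one of these symbols was taken, which gave 4 probes for 3 genes out of 8637 genes measured: 1 probe for Mpo, 2 for Ngp and 1 for Mmp9. Macrophages had been grown from bone marrow of C3H/ARC mice in culture with human CSF-1, a growth factor that drives their differentiation. The cells were unstimulated (0 h) or had been in 10 µg per ml of lipopolysaccharide (LPS) of S. minnesota, a component of the bacterial outer membrane, for 0.5, 2, 7 or 21 h. Each time was measured on 1 two-colour cDNA array whose other channel held RNA of whole C57BL6/J embryos of day 17.5. With 1 array per time there are no replicates and no test between times, so no p-value is given, and precision is limited by the number of arrays.

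Neutrophils make their granules in the bone marrow in a fixed order, and each granule class carries the proteins made at that stage. Mpo encodes myeloperoxidase, the haem enzyme of primary granules that makes hypochlorous acid from hydrogen peroxide, and it is switched on in myeloid progenitors. Ngp encodes neutrophilic granule protein, a relative of cystatins and cathelicidins that is stored in secondary granules of the mouse. Mmp9 encodes gelatinase B, a secreted metalloproteinase that cuts denatured collagen and type IV collagen; it gives the gelatinase granules of neutrophils their name and is also a gene that macrophages induce when activated.

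The promoter set used here held no window for Mmp9. The bases just upstream of Mpo and Ngp are shown. They run from 250 bases before to 50 bases after the gene start in RefSeq (build GRCm38.p6), 5′ to 3′ on the plus strand, with matches to a PU.1 motif (GAGGAA) or a C/EBP motif (TTGCNNAA), searched on both strands, in capitals. PU.1, the product of Spi1, and the C/EBP family are transcription factors that drive granule genes in myeloid cells.
Mpo, chr11:87793534-87793833: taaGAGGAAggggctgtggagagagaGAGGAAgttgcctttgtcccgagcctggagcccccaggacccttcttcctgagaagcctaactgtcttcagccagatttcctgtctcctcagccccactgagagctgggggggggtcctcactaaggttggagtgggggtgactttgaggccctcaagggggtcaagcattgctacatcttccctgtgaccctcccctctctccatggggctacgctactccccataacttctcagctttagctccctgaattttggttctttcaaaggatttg
Ngp, chr9:110419558-110419857: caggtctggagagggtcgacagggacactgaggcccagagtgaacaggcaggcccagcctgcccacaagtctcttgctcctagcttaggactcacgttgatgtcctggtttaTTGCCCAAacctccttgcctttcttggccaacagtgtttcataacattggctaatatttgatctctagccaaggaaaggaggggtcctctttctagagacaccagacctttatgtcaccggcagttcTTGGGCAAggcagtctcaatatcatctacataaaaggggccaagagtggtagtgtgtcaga
The Mpo window held 2 PU.1 matches, which began 247 and 224 bases before the start, and 0 C/EBP matches. The Ngp window held 2 C/EBP matches, which began 138 and 11 bases before the start, and 0 PU.1 matches. Of 32851 promoter windows of the same 300 bases in RefSeq, 28.3% held GAGGAA and 10.8% held TTGCNNAA. An AP-1 motif (TGANTCA, in 7.81% of windows) was found in neither. A loose NF-kappaB motif, present in 50.8% of windows, was found once in the Mpo window, from 116 bases before the start, and 0 times in the Ngp window. A match is a description of letters in this window and says nothing of binding.

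All values below are log2 ratios, macrophage over embryo, after subtraction of the array median. The deposited values were read as log10, which was inferred from their spread because the labels state no log base. If the base was 2, every log2 change is 3.32 times too large. The direction is likely and rests on markers. The median log2 ratio of 8 measured macrophage markers was 2.16, 2.31, 2.61, 2.26 and 1.91 in order of time, and that of 8 stromal markers, which belong to the embryo, was -1.72, -2.46, -2.32, -2.70 and -2.49. The macrophage markers were not all high: at 0 h Cd68 read -0.49, Tyrobp -0.04 and Aif1 0.08, while the others lay between 1.72 and 6.21. The highest, Ctss and Fcgr1, rest on single probes in affected runs, which are defined below. If the ratio ran the other way, higher and lower would exchange throughout. Of the 14 neutrophil markers listed without the 3 genes themselves, 5 were measured on all arrays, and their median log2 ratio was -0.05, -0.00011, 0.11, 0.26 and -0.27. The arrays of 0.5 h and 2 h held many high ratios that followed the probe number: the share of probes 10-fold or more over the median of the array was 2.87% and 4.36%, against 0.191% at 0 h, 0.498% at 7 h and 0.448% at 21 h. Probe numbers were therefore divided into 207 runs of 96, and a run is called affected, as 94 were, where 10% or more of its probes at 0.5 h or 2 h exceeded the 0 h array by 2-fold. The Mpo probe lies in such a run. Both Ngp probes and the Mmp9 probe lie outside them, although the run of the Ngp probe with the higher 0 h ratio stood just under the limit, with 9.68% at 2 h, while that of the Mpo probe had 12.6%.

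At 21 h the granule genes Mpo and Ngp lay lower, and the gelatinase gene Mmp9 lay higher, than on every earlier array. Ngp stood at 32.5% and Mpo at 42.0% of the 0 h level, and Mmp9 was 3.62-fold higher. Until 7 h the changes of all 3 genes from 0 h stayed between -0.04 and 0.59 on the log2 scale, less than 2-fold. These changes are the values the genes were selected on, so they are given as a description. Fewer cells of a type and less RNA per cell cannot be told apart in such bulk RNA.

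The single Mpo probe had log2 ratios of 0.22, 0.65, 0.32, 0.18 and -1.03 at 0, 0.5, 2, 7 and 21 h. The first 4 arrays spanned 0.47, and the 21 h array lay 1.22 below the lowest of them. Its change from 0 h was -1.25 at 21 h, a 2.38-fold lower ratio, after 0.43, 0.10 and -0.04 at the earlier times. Set against the median of its own run of 96 probe numbers, the change was -0.96, which is short of 2-fold. The run as a whole had a median change of -0.22 at 21 h.

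Ngp, the relative of cystatins and cathelicidins, had gene means of 1.14, 1.54, 1.73, 1.36 and -0.48, and its change at 21 h was -1.62 (SD over probes 1.08, 2 probes). Its probe with the higher 0 h ratio (number 11878) read 1.76, 2.06, 2.48, 1.56 and -0.62, and the probe with the lower 0 h ratio (number 1974) 0.53, 1.03, 0.99, 1.17 and -0.33. On both probes the 21 h array was the low one, by 2.18 and 0.86 below the lowest earlier array. The size differed between the probes, with a change from 0 h of -2.38 on the first and -0.86 on the other, so the other alone does not reach 2-fold against 0 h. It does so against 7 h, with -1.50, as does the first with -2.18. Their changes at 7 h were of opposite sign, -0.20 on the first and 0.64 on the other. Under quantile normalization, which gives every array the same distribution, the change of Ngp was -0.64 at 0.5 h, -0.83 at 2 h and -2.46 at 21 h, so its early direction depends on the scaling. The median of each probe's run moved by -0.02 and -0.06 at 21 h.

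The single Mmp9 probe had log2 ratios of -0.77, -0.45, -0.29, -0.56 and 1.09. It was thus below the array median on the first 4 arrays, which spanned 0.49, and above it on the 21 h array alone. Its change from 0 h was 0.32, 0.49, 0.21 and 1.86 at 0.5, 2, 7 and 21 h. Between 21 h and 7 h the difference was 1.65, or 3.14-fold, while its run of probe numbers had a median change of 0.07 at 21 h and no early excess. As a measure of technical spread, the SD of the change over probes of one gene, pooled over 3015 genes with several probes, was 0.67, 0.97, 0.51 and 0.47 at 0.5, 2, 7 and 21 h. It is taken between different probes and includes affected runs, so it is not the error of this single probe, which is unknown.

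**Figure D1:**
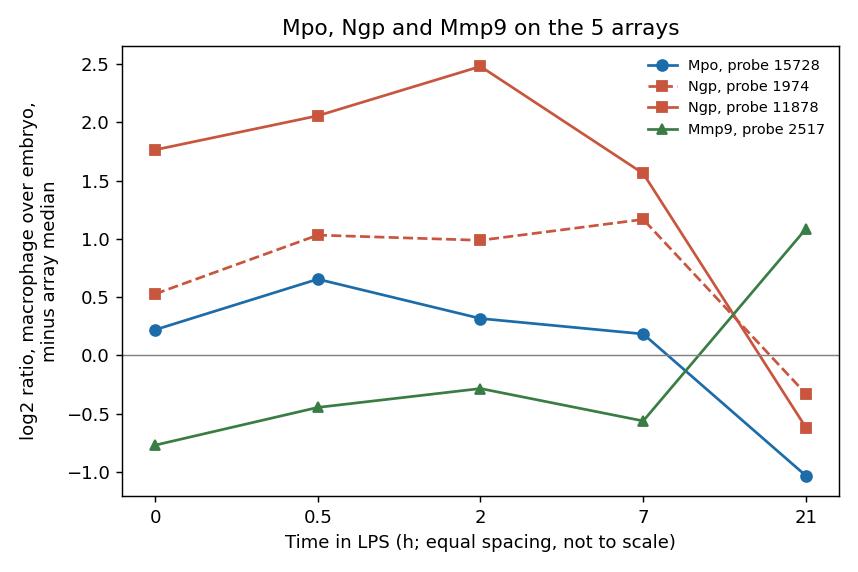
Log2 ratio (macrophage over embryo, minus the array median; vertical axis) of the 4 probes of Mpo, Ngp and Mmp9 on the 5 arrays (horizontal axis, hours in LPS, equally spaced). Each point is 1 probe on 1 array; on the 21 h array the Mpo and both Ngp probes lie between -1.03 and -0.33 and the Mmp9 probe at 1.09.

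Because all changes from 0 h share 1 array, the 21 h values were also set against each of the 4 earlier arrays. Against 0.5, 2 and 7 h, Mpo differed by -1.69, -1.35 and -1.22, Ngp by -2.02, -2.21 and -1.84, and Mmp9 by 1.53, 1.37 and 1.65. Every one of these differences is past 2-fold. They all share the 1 array of 21 h, on which the genes were chosen, so they are no separate reading of 21 h. The gap to the nearest earlier array was added after the data were seen. The 21 h ratio of Ngp was 3.07-fold and that of Mpo 2.32-fold below that array, and that of Mmp9 was 2.59-fold above it.

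The background shows how many genes met the same rules. At 21 h, 1.45% of the 8637 genes were at least 2-fold lower than at 0 h, among them Mpo and Ngp, and 3.05% were at least 2-fold higher, among them Mmp9. A ratio at 21 h at least 2-fold below each of the 4 earlier arrays was found in 0.151% of genes, and one at least 2-fold above each of them in 0.243%. Among the 13 genes on the lower side Ngp had the widest gap and Mpo stood at rank 8, and Mmp9 stood at rank 12 among the 21 on the higher side. At 0.5, 2 and 7 h, 0 of the 3 genes reached 2-fold in either direction. The share of all genes 2-fold or more above 0 h was 5.95%, 12.4% and 4.08% at these times, and the share 2-fold or more below it was 1.01%, 1.1% and 3.16%. If the values were log2, the changes at 21 h would be -0.38 for Mpo, -0.49 for Ngp and 0.56 for Mmp9, and 0 of the 3 would reach 2-fold.

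**Figure D2:**
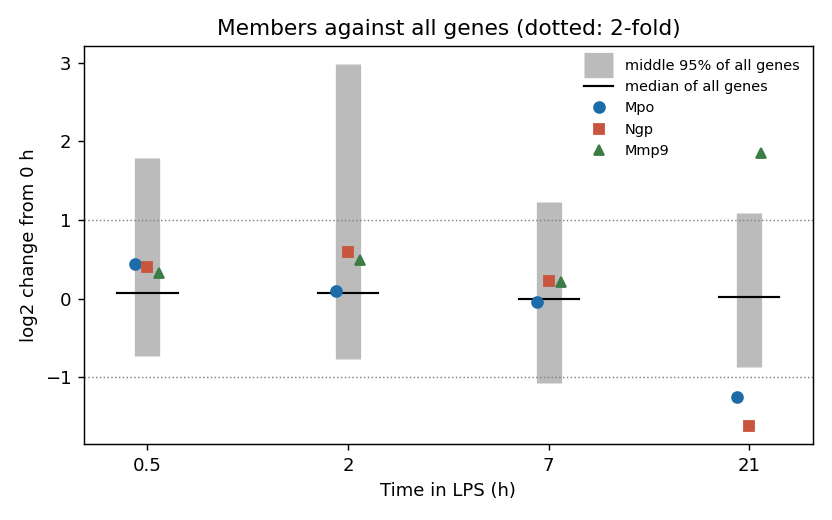
Log2 change from 0 h (vertical axis) of Mpo, Ngp and Mmp9 at 0.5, 2, 7 and 21 h, with grey bars for the middle 95% of all 8637 genes, black lines for their median and dotted lines at 2-fold. The 3 genes lie within the grey bars up to 7 h and outside them at 21 h, at -1.25, -1.62 and 1.86.

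Apart from Mpo, Ngp and Mmp9, 0 of the 11 other genes measured in the 3 granule lists was 2-fold lower at 21 h, where 1.45% of all genes were. Of 7 measured genes of the primary granule list, Mpo was the 1 gene at least 2-fold lower at 21 h, and the other 6 had changes between -0.25 and 0.62, with a median of -0.10 beside 0.02 over all genes. Under quantile normalization 3 of the 7, Mpo included, were 2-fold lower. Elane encodes neutrophil elastase, which shares the primary granule with myeloperoxidase. Its probe outside the affected runs read 1.11, 1.14, 1.21, 1.56 and 0.93, a change of -0.17 at 21 h. Ctsc, which encodes the cathepsin that activates the serine proteases of that granule, had a log2 change of 1.33 at 7 h, or 2.51-fold (SD over its 2 probes 0.52), and was 1.54-fold higher at 21 h. Of the 2 Ctsc probes, 1 lies in an affected run. Without the affected runs 0 of 6 genes of the list, Ctsc included, reached 2-fold above 0 h at 7 h, where 4.52% of all genes did. Lyz2 encodes lysozyme, which macrophages also make in bulk, and it stood at 4.03 at 21 h, against 4.16 at 0 h.

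In the secondary granule list 5 of 13 genes were measured, of which Ngp was at least 2-fold lower at 21 h and Slpi at least 2-fold higher. Over all genes 1.45% were lower and 3.05% higher. The cathelicidin gene Camp, a relative of Ngp in the same granules, was close to the array median throughout, with -0.18, -0.55, -0.09, -0.07 and -0.07. Slpi encodes an inhibitor of neutrophil elastase that macrophages also secrete. It read -0.20, -0.31, -0.24, 0.03 and 0.80, a change at 21 h that sits at the 2-fold limit, and it no longer reached 2-fold with 4 other ways of centring. Pglyrp1, a peptidoglycan-binding protein of granules, was at the 2-fold limit at 2 h and 1.75-fold higher at 21 h. In the gelatinase granule list 2 of 10 genes were measured, Mmp9 and the properdin gene Cfp, whose log2 ratio was 2.86, 2.25, 2.51, 2.66 and 3.48. Its change of 0.62 at 21 h is short of 2-fold.

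Among genes of the neutrophil surface and cytosol, S100a8 and S100a9, which encode the paired calcium-binding proteins that fill the neutrophil cytosol, had their lowest ratios at 21 h. S100a8 read -0.05, -0.00011, 0.11, 0.26 and -0.42, and S100a9 read 0.38, 0.39, -0.06, 0.21 and -0.27. Their changes at 21 h, -0.37 and -0.65, are less than 2-fold. Ly6c1, a surface antigen gene, and Wfdc21 went the other way, with changes of 0.88 and 0.61 at 21 h, also less than 2-fold. Over the 5 measured neutrophil markers the median change was 0.03, 0.10, 0.31 and -0.17 in order of time. At least 2-fold lower were 0 of 5 at any time, where between 1.01% and 3.16% of all genes were. At least 2-fold higher was 1 of 5 at 2 h and at 7 h, where 12.4% and 4.08% of all genes were. That gene was Fcnb, with changes of 1.18 and 1.66 on a probe in an affected run. The part of neutrophil RNA in the low values of Mpo and Ngp was not tested. Stfa3, a stefin gene of neutrophils, had a ratio of 1.79 at 0 h and between -4.33 and -3.52 on the other 4 arrays. Its changes from 0 h thus all rest on the 1 high reading at 0 h, while its ratios on the other 4 arrays were themselves low. The single Stfa3 probe lies in an affected run.

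Of the progenitor markers, Elane and Cd34 were measured, and neither reached 2-fold at any time. In the list of granulocyte regulators 4 of 16 genes were measured, and 0 of 4 were 2-fold from 0 h at any time. Over all genes, between 3.05% and 12.4% were 2-fold higher and between 1.01% and 3.16% lower at each time, so few are looked for among so few genes. Among the regulators Cebpa, whose product starts granule gene expression, had changes of 0.32, 0.17, 0.68 and 0.26, and Cebpd had 0.67, 0.36, 0.72 and 0.38. Of the 10 measured relatives of Ngp in the cystatin and cathelicidin families, Stfa3 alone was at least 2-fold lower at 21 h, and 0 were higher. Over all genes the shares were 1.45% and 3.05%. Under quantile normalization 3 of the relatives were lower. Cst3, the gene of cystatin C with 6 probes, had a change of -0.30 at 21 h.

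**Figure D3:**
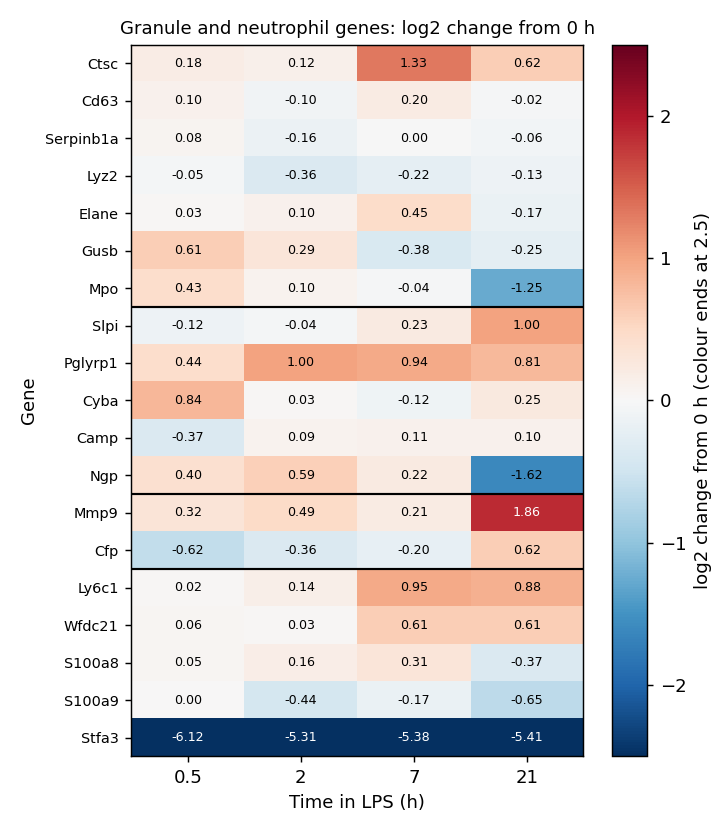
Log2 change from 0 h, printed and coloured (colour ends at 2.5 in either direction), of the measured genes of the primary granule, secondary granule, gelatinase granule and neutrophil lists (blocks from top to bottom, each sorted by 21 h), at 0.5, 2, 7 and 21 h (columns). Mpo (-1.25) and Ngp (-1.62) are blue in the 21 h column alone, Mmp9 (1.86) is red there, and Stfa3 is blue in every column.

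Among 7 measured metalloproteinase genes, 1 was 2-fold above 0 h at 21 h and 0 were 2-fold below it, where 3.05% and 1.45% of all genes were. The 1 gene was Mmp9, which was chosen on this value. The other 6 had changes between -0.23 and 0.52 with a median of 0.08. Mmp2 encodes the other gelatinase. It read -1.26, -1.34, -1.26, -1.07 and -0.77, and its change of 0.48 at 21 h was 1.40-fold. Mmp23 had its highest change, 0.90, at 7 h.

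Among inhibitors that bind metalloproteinases, Timp1 and Timp2 had their highest ratios at 7 h, when the change of Mmp9 was 0.21. Timp1, the inhibitor that pairs with pro-Mmp9, read 0.05, 0.31, 0.51, 1.08 and 0.40, which is 2.04-fold above 0 h at 7 h and 1.28-fold at 21 h. Timp2 read -0.95, -0.43, 0.04, 0.35 and -0.13, which is 2.46-fold at 7 h and 1.76-fold at 21 h. Timp3 and Reck, a membrane-bound inhibitor, had changes of -0.71 and -0.52 at 7 h and of -0.16 and -0.11 at 21 h. The plasmin system, which can activate secreted metalloproteinases, was represented by Plaur and Serpinb2. Plaur, the receptor of urokinase, was 3.62-fold higher at 2 h, and its change at 21 h was -0.74. Serpinb2, an inhibitor of urokinase, read 0.26, -0.18, 1.49, 2.53 and 3.16 and was 7.49-fold higher at 21 h. Timp1, Plaur and Serpinb2 were read by probes in affected runs, whereas Timp2 and Mmp9 were not. Over the 8 measured inhibitors and activators, 3 reached 2-fold above 0 h at 7 h and 1 did so at 21 h, where 4.08% and 3.05% of all genes did. Their median change was 0.60 at 7 h and 0.23 at 21 h, beside -0.00029 and 0.02 over all genes. Without the affected runs 1 of 5 did so at 7 h and 0 of 5 at 21 h, where the shares of all genes were 4.52% and 2.55%, and the median was 0.32 at 7 h and 0.27 at 21 h.

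**Figure D4:**
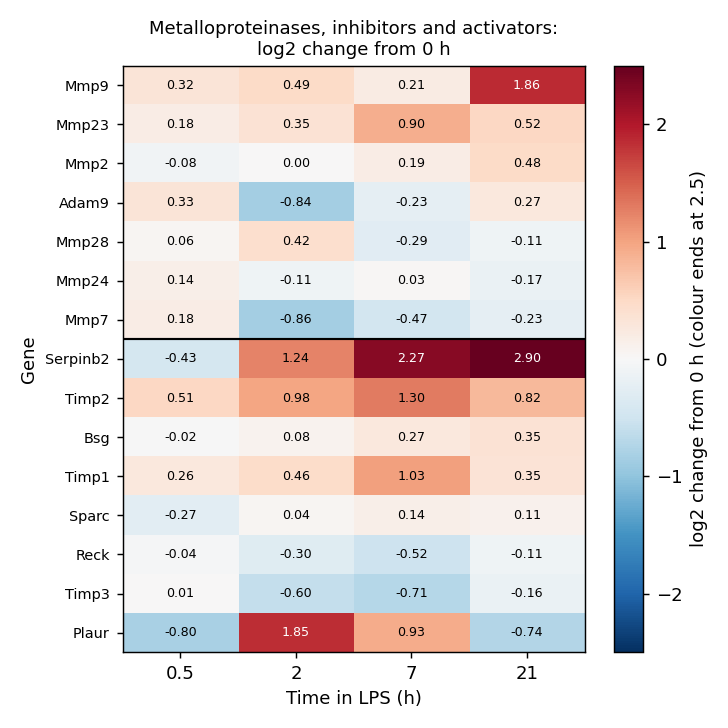
Log2 change from 0 h, printed and coloured (colour ends at 2.5), of 7 metalloproteinase genes (upper block) and 8 inhibitor and activator genes (lower block) at 0.5, 2, 7 and 21 h (columns). Mmp9 reads 1.86 at 21 h, where the other metalloproteinases lie at 0.52 or less, while Timp1 and Timp2 read 1.03 and 1.30 at 7 h.

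Gelatinase substrates gave 10 measured genes, of which 0 were 2-fold from 0 h at 21 h. Of all genes, 3.05% were 2-fold higher and 1.45% lower at that time. Without the affected runs 1 of 8 substrate genes was 2-fold lower at 21 h. Dcn had changes of -1.28, -1.28, -1.17 and -0.85 in order of time. The SD over its 3 probes, 1 of them in an affected run, was 1.13 at 7 h. The 5 collagen genes among the substrates lay below the array median at 0 h, from -5.29 for Col1a2 to -0.88 for Col3a1. The list of oxidase, peroxide and haem genes had a median change of 0.67 at 21 h, and 4 of 8 reached 2-fold above 0 h while 0 reached 2-fold below it, where 3.05% and 1.45% of all genes did. Sod2, which makes hydrogen peroxide from superoxide, had a log2 change of 2.46 at 21 h, or 5.48-fold (SD over its 4 probes 2.02). Hmox1, which degrades haem, read 2.09, 2.52, 1.23, 2.21 and 4.33, and was 4.74-fold higher at 21 h. The peroxide-removing Prdx1 was 2.97-fold higher (1.57, SD 0.73, 9 probes), and the oxidase subunit gene Rac2 was 2.03-fold higher (1.02, SD 0.79, 4 probes). Gpx1, a glutathione peroxidase gene with 6 probes, had a change of -0.94 (SD 0.56). In affected runs lie 3 of the 4 Sod2 probes, 6 of the 9 Prdx1 probes and the single Hmox1 probe. The same holds for 1 of the 4 Rac2 probes and 2 of the 6 Gpx1 probes. Without the affected runs 3 of 7 genes of the list reached 2-fold above 0 h, where 2.55% of all genes did, and the median was 0.31.

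The genes whose profiles were most like each of the 3 were sought among all genes other than these 3 by the root mean square difference of the 4 changes from 0 h, with all 5 arrays used. For Mpo these were Dlst (0.12), Crip1 (0.14), Rfc3 (0.18), Kank3 (0.18) and Lpl (0.18). Their changes at 21 h were between -1.48 and -1.04. For Ngp they were Anxa1 (0.24), Ipo5 (0.32), Lpl (0.32), Fbxo4 (0.34) and Mki67 (0.35), with changes at 21 h between -1.48 and -0.98. The same measure between Ngp and Mpo was 0.33, closer than Fbxo4 and Mki67 are to Ngp. Seen from Mpo, it was wider than that of any gene named for Mpo above. It was 1.57 between Mmp9 and Mpo and 1.74 between Mmp9 and Ngp. The 3 genes were chosen by their changes at 21 h, which enter this measure, so these values are a description. Lpl, the lipoprotein lipase gene, was on both lists, and its 4 probes lie outside the affected runs. For Mmp9 the most alike were Clec4b1 (0.15), Sort1 (0.21), Samsn1 (0.28), Anks6 (0.29) and Efhd2 (0.30), which stood between 1.58 and 1.92 at 21 h. The 2 Rfc3 probes, 2 of the 3 Crip1 probes and 2 of the 4 Anxa1 probes lie in affected runs. So do the single probes of Ipo5, Fbxo4, Samsn1 and Anks6. The 0.5 h and 2 h changes of these genes enter the measure.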

How the data were processed

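The table deposited by the authors holds 1 log ratio per probe and array, read here as log10. Its scanner, background correction and normalization by the authors are not given in the sources used here, and per the labels RNA was labelled by the indirect amino-allyl method with Cy3. The log2 ratio is this value times 3.32, less the median of its array over those 18296 of 19828 probes with a value on all 5 arrays. Probes were named from the platform annotation of 2008. Of these, 14759 had 1 symbol, 170 several and 4899 none listed here, and 14628 were updated by Entrez identifier to the RefSeq gene table of GRCm38.p6. Probes of a gene were averaged, giving 8637 genes. A gene was counted as higher or lower at 2-fold. The members, gene lists and motifs were chosen with earlier results of these data known. Besides the 3 genes, the text names measured genes of those lists, with preference for those 2-fold from 0 h at 7 h or 21 h, and the 5 most alike per gene. Other genes are said to be chosen from their values. Alternatives covered centring, quantile normalization, runs of probe numbers, probe summary, missing probes, log base and baseline. The averaging and counting steps were tested on simulated data. Python 3.11.15, numpy 2.4.6 and pandas 2.3.3 were used.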

Additional observations from a re-analysis of the deposited data

How the results depend on the processing

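The change at 21 h kept its sign for Mpo, Ngp and Mmp9 under every alternative that gave a value. Leaving out affected runs gave none for Mpo, whose single probe lies in such a run. With the values read as log10 the change at 21 h ranged from -1.69 to -0.96 for Mpo, from -2.46 to -0.86 for Ngp and from 1.53 to 2.16 for Mmp9. Read as log2, the changes were -0.38, -0.49 and 0.56. Quantile normalization gave Ngp -0.64 at 0.5 h, -0.83 at 2 h and -2.46 at 21 h, and its 2 probes alone gave -0.86 and -2.38 at 21 h. The cause was not tested.

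Of the 62 listed genes measured, 0, 4, 5 and 7 were 2-fold or more higher at 0.5, 2, 7 and 21 h, and 3, 3, 2 and 3 lower. Over all genes the shares were 5.95%, 12.4%, 4.08% and 3.05% higher and 1.01%, 1.1%, 3.16% and 1.45% lower. The counts at 21 h include Mmp9 among the higher genes and Mpo and Ngp among the lower, which were chosen on these values. With a threshold of 1.5-fold the higher counts were 4, 9, 14 and 14 and the lower counts 5, 8, 8 and 9. Quantile normalization gave 11, 14, 5 and 9 lower genes, and 2 higher at 2 h. Read as log2, 0 genes were higher at 2, 7 and 21 h and 1 was lower at each time. Leaving out affected runs, and with them genes, gave 2 higher at 2 h and 3 at 7 h, and 1 lower at 0.5 h and at 7 h. The median over probes gave 1 lower at 2 h and 4 at 7 h, and no centring gave 5 lower at 21 h. With the 0.5 h array as baseline 0 genes were lower at 7 h, and probes with values on both arrays gave 1 higher at 0.5 h.

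Over all genes, 514, 1071, 352 and 263 were 2-fold or more higher and 87, 95, 273 and 125 lower. These counts were 240, 430, 417 and 324 higher and 298, 395, 516 and 391 lower under quantile normalization, and 220 and 510 at 7 h and 190 and 222 at 21 h without centring. With the 0.5 h array as baseline, 694 genes were higher at 2 h, and 709 and 627 lower at 7 h and 21 h. Without the affected runs 77, 253, 271 and 153 were higher and 59, 93, 172 and 65 lower. Read as log2, 56, 173, 7 and 8 genes were higher and 2, 2, 5 and 2 lower. No paired analysis was possible because each time has 1 array, and for that reason no replicate could be left out.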

Other observations

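Mpo and Ngp shared the 21 h array as their low point with 11 further genes that lay at least 2-fold below each of the 4 earlier arrays. These were named after their values were seen. Next to Ngp (gap 1.62 on the log2 scale) stood Lpl, which encodes lipoprotein lipase (1.48, 4 probes, 0 in affected runs), the mitotic ubiquitin-conjugating enzyme gene Ube2c (1.37), Ino80 (1.28) and Anxa1, which encodes annexin A1 (1.27, 4 probes). The transferrin receptor gene Tfrc (1.24), the mitotic cyclin gene Ccnb2 (1.07) and the thymidine kinase gene Tk1 (1.01) were also among them. Ube2c, Ino80, Tfrc and Tk1 rest on single probes in affected runs, as does Mpo, and 2 of the 4 Anxa1 probes and 1 of the 2 Ccnb2 probes lie in them.

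Mmp9 was 1 of 21 genes that lay at least 2-fold above each earlier array at 21 h. The widest gaps were those of Arg1, which encodes arginase 1 (3.50), the scavenger receptor gene Marco (2.93), the haem oxygenase gene Hmox1 (1.81) and Pla2g7, which encodes a phospholipase of platelet-activating factor (1.72). Each has 1 probe, which lies in an affected run for Arg1 and Hmox1 and outside for Marco and Pla2g7. Ficolin B (Fcnb), a lectin gene of the neutrophil list on a probe in an affected run, peaked earlier, with log2 ratios of -0.46, -0.22, 0.72, 1.2 and -0.43, 3.16-fold above 0 h at 7 h.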
